A study of Mus musculus with 14 samples.

Results

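HOX genes encode homeodomain transcription factors that sit in 4 clusters, HOXA to HOXD, and are numbered by paralog group along each cluster. In the embryo, low paralog numbers are expressed from the hindbrain downwards and higher numbers only at successively more caudal levels, and adult cells often keep the HOX combination of the body level where they arose. Dorsal root ganglia (DRGs), nerves, and the connective tissue around them therefore carry a HOX readout of position, and single HOX genes also act in particular neuron classes. The members described here are all genes of the count table named Hoxa, Hoxb, Hoxc, or Hoxd followed by a number, 39 of 24062 genes. They comprise 11 genes of HOXA on chromosome 6, 10 of HOXB on chromosome 11, 9 of HOXC on chromosome 15, and 9 of HOXD on chromosome 2 (mm10).

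The 14 bulk RNA-seq libraries came from 3 control DRGs with nerves (Nf1fl/fl mice, no Cre), 5 slow-growing plexiform neurofibromas (PNs), and 6 fast-growing PNs. PNs are benign nerve tumors, and all 11 came from DhhCre;Nf1fl/fl mice, in which Cre driven by Dhh deletes Nf1 in the Schwann cell lineage and not in the other cells of the tumor. All mice were on a mixed C57BL/6, I-129, and FVBN background without drug treatment. The methods of the paper describe the background as largely C57BL/6. The methods give 9 months as the age at collection. Fast growth meant a volume increase above 35 mm3 and slow growth a change below 5 mm3 between MRI scans at 7 and 9 months. Male and female mice were used, and neither the sex nor the axial level of a library was given. The PNs of this model form mainly around cervical DRGs, and whether the control DRGs came from the same level is not stated, so body level and tumor cannot be told apart. Nothing in the sources states that every library came from a different mouse, so p-values measure the spread between libraries. The libraries are whole tissue, and fewer cells of a type cannot be told apart from less RNA per cell.

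Libraries held 9596773 to 17594164 counts on genes. Between 920 and 1759 of these fell on HOX genes, and their summed level was 69.2 to 142 CPM (reads of a gene per unit of library size, scaled with TMM factors). Nf1 counts sum over the whole gene and over all cells, so they do not check the deletion. Nf1 was at 129 to 227 CPM in controls and 225 to 294 CPM in PNs (log2 fold change 0.54, SE 0.157, edgeR adjusted p = 0.0215). It was not called without DRG4 or DRG5. Of 7 alternative ways of processing, 5 kept the call and 2 lost it. Removal of length and GC trends was among these 2, with a log2 fold change of 0.18 and an edgeR adjusted p of 0.375. In PNs against controls 12.9% of all genes tested were called higher and 13.4% lower. Of 10 Schwann cell markers 5 were called higher in PNs, and of 12 neuron markers 0 were called. Summed skeletal muscle markers were 3880 to 15800 CPM in controls and 29.7 to 3630 CPM in PNs, with 10 of 15 markers called lower in PNs. Summed brown fat and adipocyte markers were 3970 to 6140 CPM in controls and 49.8 to 2920 CPM in PNs, with 6 of 13 called lower. Summed spinal cord markers were low but did not overlap, at 65.4 to 75.4 CPM in controls and 20.4 to 51.2 CPM in PNs; 4 of 10 were tested and 2 called lower. Summed neuron markers were 1640 to 14600 CPM in 13 libraries and 26.5 CPM in the fast-growing PN 1191, which stands apart in this respect.

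The highest paralog number with at least 3 counts was 11 in 6 libraries, 10 in 7, and 9 in the fast-growing PN 1179. Of the 39 members, 21 had at least 3 counts in every library, 10 in some libraries, and 8 in none. All but 1 of the 15 members of paralogs 4 to 8 were in the first class; the exception was Hoxb8. Of the 16 members of paralogs 9 to 13, Hoxd9 alone reached 3 counts in all 14 libraries. The 6 members Hoxc11, Hoxc12, Hoxd12, Hoxa13, Hoxb13, and Hoxc13 had 0 counts in every library, which allows up to 0.167 to 0.313 CPM per library. Hoxb1, whose main domain in the embryo is the hindbrain, had 3 counts over all libraries. Hoxa11 had 4 counts, all in the fast-growing PN 1191. Hoxd11 had 0 to 7 counts per library. The end differed between clusters. HOXB ended at paralog 7 to 9, HOXC at 8 to 10, HOXD at 9 to 11, and HOXA at 7 to 11, with 7 in the fast-growing PNs 1053, 1179, and 1216.

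**Figure D1:**
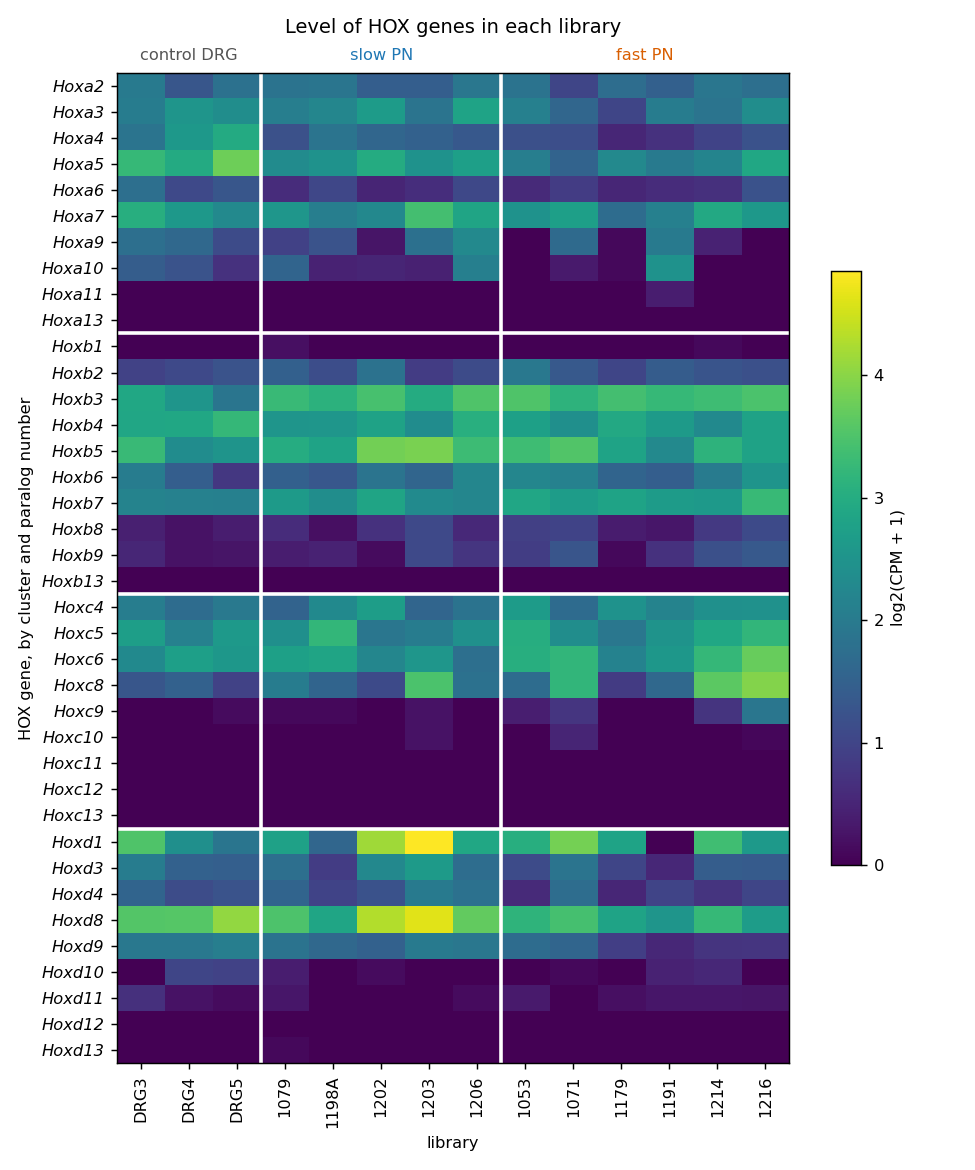
Level of the HOX genes (rows, by cluster and paralog number; 1 member is not shown) in each of the 14 libraries (columns, by group) as log2(CPM + 1). Paralogs 2 to 8 are filled in nearly all libraries, while paralogs 11 to 13 are at or near 0; Hoxd1 is at 0 in the fast-growing PN 1191 and at its highest, 27.9 CPM, in the slow-growing PN 1203.

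Per kilobase of transcript, the order of the members differed between groups. In the 3 controls the highest mean levels were those of Hoxa5 at 4.99 ± 1.62, Hoxd8 at 4.73 ± 1.08, and Hoxd1 at 3.14 ± 2.22 CPM per kb (SD). In the 5 slow-growing PNs they were those of Hoxd1 at 6.36 ± 5.67, Hoxd8 at 5.37 ± 2.68, and Hoxb5 at 5.18 ± 1.85 CPM per kb, where Hoxd1 ranged up to 15 CPM per kb in PN 1203. In the 6 fast-growing PNs they were those of Hoxb7 at 4.77 ± 0.985, Hoxc6 at 4.66 ± 1.92, and Hoxb5 at 3.83 ± 1.30 CPM per kb. Within each group these neighbours in the order differed by less than the larger of their SDs. The coefficient of variation within a group was 16.1% in controls and 20% in PNs for Hoxb4. For Hoxa2 it was 33.7% and 25.6%, for Hoxb3 40.2% and 13.1%, for Hoxa4 42.8% and 45.4%, and for Hoxc8 31.9% and 91.4%.

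Further members are given by their lowest, median, and highest CPM over the 14 libraries, and none of those tested was called in PNs against controls. Among the anterior genes, whose paralog groups pattern the hindbrain and neck, Hoxa2 ran from 1.02 through 2.46 to 3 CPM and Hoxb2 from 0.824 through 1.32 to 2.84 CPM. Hoxa3 ran from 1.02 through 3.27 to 6.07 CPM, and Hoxd3 from 0.454 through 1.80 to 5.22 CPM with its highest value in PN 1203.

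In paralog groups 4 and 5, which mark the cervical region, Hoxb4 ran from 3.93 through 5.86 to 8.34 CPM, Hoxc4 from 1.90 through 3.32 to 5.51 CPM, Hoxd4 from 0.439 through 1.26 to 2.93 CPM, and Hoxc5 from 2.76 through 4.52 to 8.27 CPM. In groups 6 to 8, which reach into the thoracic region, Hoxb6 ran from 0.730 through 2.33 to 4.71 CPM, Hoxc6 from 2.41 through 5.30 to 12.2 CPM, Hoxa7 from 2.27 through 4.95 to 9.52 CPM, and Hoxb8 from 0.150 through 0.507 to 1.14 CPM. Hoxc6 was highest in the fast-growing PN 1216 and Hoxa7 in the slow-growing PN 1203. Hoxc10 and Hoxd10, of the lumbar code, had medians of 0 and 0.0341 CPM and highest levels of 0.410 and 1.01 CPM, the latter in control DRG4. Hoxd13, of the limb and tail end, had 1 count over all libraries.

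The mean paralog number of a library, weighted by CPM, summarises how anterior or posterior its HOX levels are. It was 5.28 ± 0.177 for the 3 controls, 5.05 ± 0.241 for the 5 slow-growing PNs, and 5.15 ± 0.325 for the 6 fast-growing PNs (SD), and the groups overlapped. With levels taken per kilobase it was 5.26 ± 0.176, 5.06 ± 0.264, and 5.25 ± 0.315. The lowest values were 4.65 in the slow-growing PN 1202 and 4.66 in the fast-growing PN 1179, and the highest was 5.54 in the fast-growing PN 1191, the library with 0 counts of Hoxd1. With Hoxd1 left out, a choice made after seeing the data, the mean paralog number was 5.55 ± 0.058 for controls, 5.51 ± 0.331 for the slow-growing, and 5.46 ± 0.29 for the fast-growing PNs. The order of the libraries then changed, with the highest values, 6.03 and 5.76, in PN 1203 (5.04 with Hoxd1) and PN 1071 (5.16 with Hoxd1). PN 1191 was at 5.54, below PN 1214 at 5.66 and DRG4 and PN 1216 at 5.61. Paralogs 9 to 13 held 6.63% to 8.98% of HOX counts in controls. In PNs their share ran from 1.80% in PN 1179 (95% exact binomial interval 1.05% to 2.86%) to 13.3% in PN 1191 (11.2% to 15.7%). These intervals cover counting error only. The SD of the share was 1.18 over the 3 controls and 3.43 over the 11 PNs, and a range widens with the number of libraries.

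The 4 clusters did not keep the same shares. In controls HOXA held 33.0% ± 2.95 of HOX counts, against 22.8% ± 5.0 for slow-growing tumors and 19.3% ± 5.58 for fast-growing ones (SD over libraries). In the same order of groups, HOXB held 25.5% ± 2.90, 32.0% ± 4.64, and 37.2% ± 5.41. All PNs but 1191, at 30.5%, had a lower HOXA share than every control. HOXC held 14.5% ± 1.01, 15.9% ± 6.02, and 24.8% ± 6.92, and HOXD 27.1% ± 1.10, 29.3% ± 11.1, and 18.7% ± 6.69. These shares are descriptions and were not tested.

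In PNs against controls, 3 central HOXA genes were lower and 1 HOXB gene was higher. The comparison tested 16283 genes, 26 of them members, and called 12.9% of all genes higher and 13.4% lower. These shares rest in part on single controls, since the 4283 genes called in all became 2476 without DRG4 and 2061 without DRG5. Among the members, 1 was called higher and 3 lower, close to or below those shares. Every PN lay above every control for 2 members and for 8.51% of all genes tested. Every PN lay below every control for 1 member and for 9.13% of all genes tested. The median log2 fold change of the 26 tested members was 0.02, against 0.10 over all genes tested (log2 scale, edgeR). A gene was called where the adjusted p was under 0.05 (edgeR, quasi-likelihood; Benjamini-Hochberg over all genes tested).

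Hoxa4, a gene of the cervical and upper thoracic code, was at 2.66, 5.04, and 6.77 CPM in controls DRG3, DRG4, and DRG5. It was at 1.29, 2.63, 2.04, 1.83, and 1.54 CPM in the slow-growing PNs 1079, 1198A, 1202, 1203, and 1206. In fast-growing PNs its lowest, median, and highest levels were 0.439, 1.10, and 1.34 CPM. Every PN was below every control, with the slow-growing PN 1198A nearly at the level of DRG3. The log2 fold change was -1.82 (SE 0.397, edgeR adjusted p = 0.00416). Gm29430 overlaps Hoxa4 on the opposite strand, and whether counting used strand is not stated.

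Hoxa5, which in the embryo patterns cervical vertebrae and is needed for lung and phrenic motor neuron development, was at 8.57, 6.78, and 12.7 CPM in DRG3, DRG4, and DRG5. It was at 4.10, 4.58, 6.94, 4.58, and 5.69 CPM in the slow-growing PNs, in the order above. In fast-growing PNs its levels ran from 1.91 through a median of 3.40 to 6.45 CPM. The groups overlapped only through the slow-growing PN 1202, which was above DRG4. The log2 fold change was -1.12 (SE 0.307, edgeR adjusted p = 0.0153). Its neighbour Hoxa6 was at 2.40, 1.10, and 1.46 CPM in controls and at 0.532, 1.05, 0.409, 0.549, and 1.06 CPM in slow-growing PNs. In fast-growing PNs Hoxa6 ran from 0.439 through 0.561 to 1.34 CPM, and the fast-growing PN 1216 lay within the control range. Its log2 fold change was -1.22 (SE 0.381, edgeR adjusted p = 0.0289). With length and GC trends removed it was -0.54 (edgeR adjusted p = 0.345).

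Hoxb3, which with its paralogs patterns the hindbrain and upper neck, went the other way. It was at 6.43, 4.76, and 2.71 CPM in DRG3, DRG4, and DRG5 and at 8.73, 7.74, 9.91, 6.96, and 10.4 CPM in slow-growing PNs. In fast-growing PNs it ran from 7.85 through 9.32 to 10.5 CPM, and every PN was above every control. The log2 fold change was 0.94 (SE 0.224, edgeR adjusted p = 0.00708). Hoxb3os overlaps Hoxb3 on the opposite strand. Without control DRG5, the library with the most muscle marker signal, Hoxb3 was the only member called in PNs against controls; the adjusted p was then 0.0532 for Hoxa4, 0.149 for Hoxa5, and 0.0801 for Hoxa6. Without DRG3, Hoxa6 was not called (adjusted p = 0.185). With muscle and fat scores as covariates no member was called and 324 genes were called in all, against 2103 higher and 2180 lower without them.

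**Figure D2:**
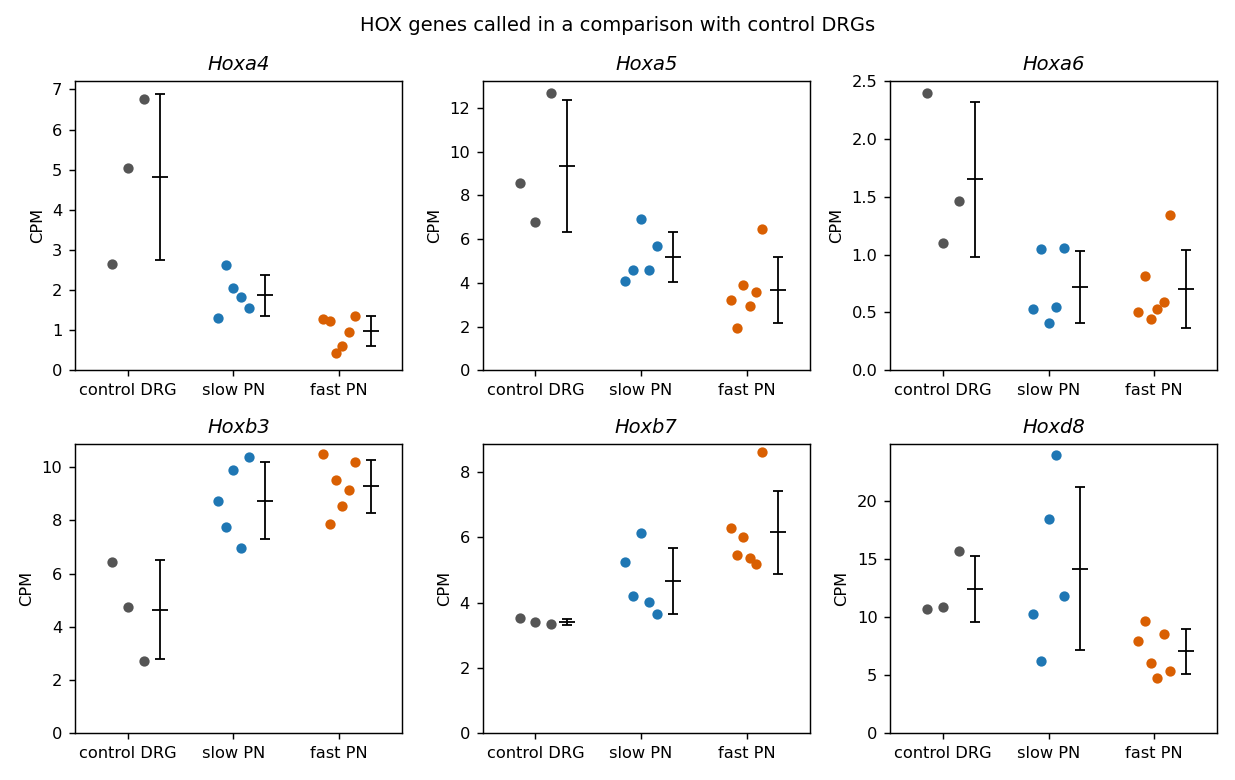
CPM (y axis) of the 6 HOX genes called in a comparison with controls, by group; points are libraries, and the bar beside them is the mean ± SD (n = 3 control DRGs, 5 slow-growing PNs, 6 fast-growing PNs). Hoxa4 lies below all controls and Hoxb3 above all controls in each of the 11 PNs, while Hoxd8 is lower in fast-growing PNs, at 4.76 to 9.69 CPM, than in controls, at 10.7 to 15.7 CPM.

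The promoter sequences of the genes called lower for which RefSeq windows were matched (GRCm38.p6, 250 bases before to 50 after the start) show how much of the homeodomain core motif these regions hold. TAAT, or ATTA when read on the other strand, is in capitals; overlapping matches were kept. Hoxa5 lies at chr6:52204538-52204837 and Hoxa6 at chr6:52208623-52208922, both on the minus strand, and Hoxd8, described below, at chr2:74704365-74704664 on the plus strand.

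Hoxa5: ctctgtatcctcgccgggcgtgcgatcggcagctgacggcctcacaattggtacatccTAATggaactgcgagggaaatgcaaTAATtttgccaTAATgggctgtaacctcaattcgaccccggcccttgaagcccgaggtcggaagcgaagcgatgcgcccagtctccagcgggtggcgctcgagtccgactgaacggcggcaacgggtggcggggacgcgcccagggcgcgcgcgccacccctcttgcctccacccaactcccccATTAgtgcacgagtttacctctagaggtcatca
Hoxa6: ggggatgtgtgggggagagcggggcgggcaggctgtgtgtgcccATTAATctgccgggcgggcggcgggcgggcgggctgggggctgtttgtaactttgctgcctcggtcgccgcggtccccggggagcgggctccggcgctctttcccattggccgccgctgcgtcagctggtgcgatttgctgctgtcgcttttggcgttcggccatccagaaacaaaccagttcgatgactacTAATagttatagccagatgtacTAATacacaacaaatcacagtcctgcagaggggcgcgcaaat
Hoxd8: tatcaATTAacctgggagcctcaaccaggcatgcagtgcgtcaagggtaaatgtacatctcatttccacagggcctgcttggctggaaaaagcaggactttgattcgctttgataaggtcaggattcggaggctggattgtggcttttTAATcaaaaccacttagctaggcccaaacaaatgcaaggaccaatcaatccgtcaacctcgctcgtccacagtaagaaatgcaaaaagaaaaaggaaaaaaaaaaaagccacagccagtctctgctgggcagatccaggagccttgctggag

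Hoxa5 and Hoxa6 each had 4 matches and Hoxd8 had 2. The motif was in 19 of the 24 windows of 22 members and in 58.0% of 32851 mouse windows of this length. The letters TGATNNAT, a bipartite site of HOX with PBX cofactors, were in 4 of the 24 windows and in 8.85% of all windows, and in none of the 3 printed, on either strand. AGGTCA, a half-site of nuclear receptors that include those of retinoic acid, was in 7 of the 24 windows and in 16.3% of all. It was matched in the Hoxa5 and Hoxd8 windows. A match describes letters and not binding.

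**Figure D3:**
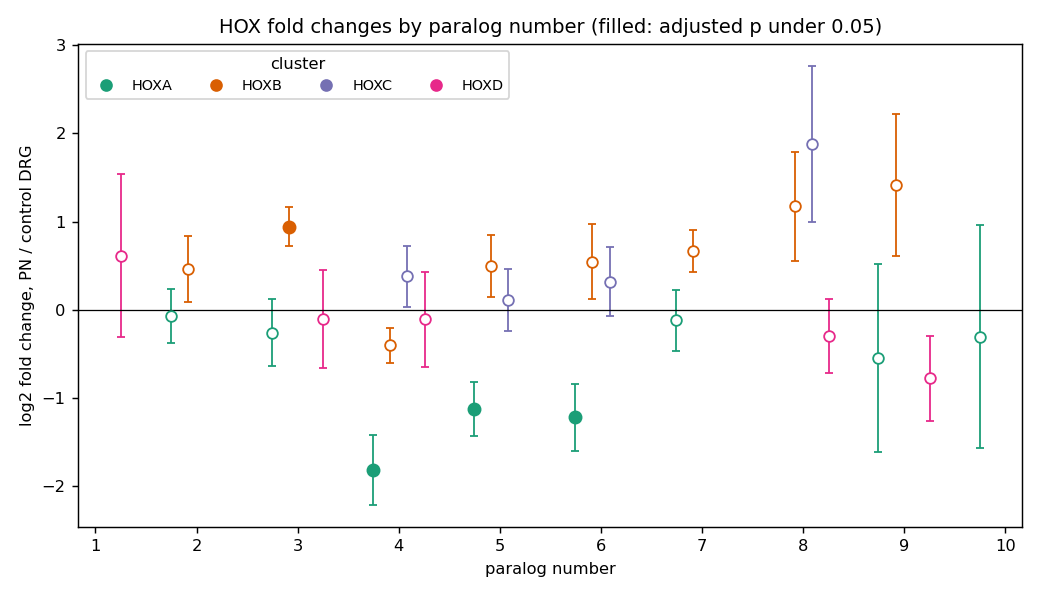
Log2 fold change of PNs over controls (y axis, ± SE) for the HOX genes tested, by paralog number (x axis; 1 tested member is not shown), with clusters in color and filled points for an adjusted p under 0.05. Hoxa4, Hoxa5, and Hoxa6 lie together below 0, and Hoxb3 is the filled point above 0.

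The same genes were examined for slow-growing PNs alone. This comparison tested 15714 genes and called 4.12% higher and 7.13% lower. The 1769 genes called in all became 685 without DRG4, 599 without DRG5, 957 without the slow-growing PN 1079, and 1052 without PN 1202. All 5 slow-growing PNs were below all 3 controls for 2 members, Hoxa4 among them, and for 12% of all genes tested. Of 24 members tested, Hoxa4 was called, with a log2 fold change of -1.42 (SE 0.379, edgeR adjusted p = 0.0459). This call was not stable: leaving out DRG4, DRG5, or any slow-growing PN except 1198A ended it, with adjusted p of at most 0.224. Hoxa5 had a log2 fold change of -0.91 (SE 0.283, edgeR adjusted p = 0.0738) and Hoxb3 of 0.86 (SE 0.313, edgeR adjusted p = 0.112).

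Fast-growing PNs differed from the same controls in 5 members. The comparison tested 16037 genes, 26 of them members, and called 14.8% higher and 16.7% lower; 2 members were called higher and 3 lower. Without DRG5 the 5043 genes called in all became 3342. Hoxa4 had a log2 fold change of -2.37 (SE 0.416, edgeR adjusted p = 0.0024) and Hoxa5 of -1.42 (SE 0.363, edgeR adjusted p = 0.0151). Both were below all controls in all 6 fast-growing PNs, as were 4 members in all and 14.9% of all genes tested. Above all controls in all 6 were 2 members and 17.8% of all genes tested. Hoxb3 was higher by 0.94 on the log2 scale (SE 0.256, edgeR adjusted p = 0.0203). With muscle and fat scores as covariates all 5 calls were lost, as were those of all other genes, and the sign turned for Hoxb3 (-0.14), Hoxb7 (-0.60), and Hoxd8 (0.45).

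Hoxb7, a gene of the thoracic code, was at 3.52, 3.39, and 3.34 CPM in controls and at 5.24, 4.21, 6.13, 4.03, and 3.66 CPM in slow-growing PNs. In fast-growing PNs it ran from 5.19 through 5.73 to 8.61 CPM. All PNs were above all controls, whose 3 values were close together. The log2 fold change in fast-growing PNs was 0.78 (SE 0.232, edgeR adjusted p = 0.0289). Leaving out any 1 control or the fast-growing PN 1053 ended this call, with adjusted p up to 0.0881, and limma-voom gave an adjusted p of 0.0532.

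Hoxd8, which is expressed along much of the trunk, was at 10.7, 10.9, and 15.7 CPM in controls and at 10.3, 6.24, 18.5, 24.0, and 11.8 CPM in slow-growing PNs. In fast-growing PNs it ran from 4.76 through 6.99 to 9.69 CPM, below all controls, while slow-growing PNs lay on both sides of them. The log2 fold change of fast-growing PNs over controls was -0.90 (SE 0.253, edgeR adjusted p = 0.023). Without DRG5, PN 1179, or PN 1216 the adjusted p was 0.165, 0.0633, and 0.0637, and in a single fit over all 14 libraries it was 0.0784. Without DRG5, of the 5 calls in fast-growing PNs only that of Hoxa4 was kept; the adjusted p was 0.0884 for Hoxa5 and 0.0504 for Hoxb3. Without DRG4, Hoxb3 was not called either (adjusted p = 0.0618).

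Between fast- and slow-growing PNs no member was called by edgeR. Of 15465 genes tested, 24 of them members, 0.802% were called higher with fast growth and 0.466% lower. These shares rest on single libraries: leaving out 1 library at a time, the genes called in all numbered from 2 (without slow-growing PN 1079, 1202, or 1206 or fast-growing PN 1053 or 1191) to 1194 (without slow-growing PN 1198A). At an unadjusted p under 0.05, 3 members were lower and 0 higher. The share of all genes at that threshold is not given here, so this count has no background beside it. DESeq2 called 1 member, Hoxd8, where it called 1592 of the 15465 genes tested. With limma-voom 0 members and 34 genes were called. Hoxd8 had a log2 fold change of -1.0 (SE 0.323, edgeR adjusted p = 0.112), Hoxa4 of -0.92 (SE 0.33, edgeR adjusted p = 0.144), and Hoxd9 of -1.08 (SE 0.415, edgeR adjusted p = 0.172). Without the slow-growing PN 1198A, the adjusted p of Hoxd8 was 0.0302.

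Some HOX genes varied with the level of cell type markers across libraries. The 26 members tested in PNs against controls were set against the summed CPM of 10 marker lists over the 14 libraries, 260 relations in all, on log2(CPM + 0.5) for members. This set of relations was chosen after seeing the data. In 4 relations both measures passed 0.05 after Benjamini-Hochberg adjustment, Pearson's r and Spearman's rho alike (permutation tests with 100000 resamples, two-sided). In 15 others r passed and rho did not.

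Hoxd1, known in the mouse for its role in the wiring of pain-sensing DRG neurons, followed the 12 neuron markers (Tubb3, Snap25, Scn10a, and others). It had 0 counts in PN 1191, which allows up to 0.227 CPM, where the neuron markers summed to 26.5 CPM. It was at 27.9 CPM in PN 1203, where they summed to 14600 CPM, and at 17 CPM in PN 1202, where they summed to 8490 CPM. In controls, Hoxd1 was at 10.5, 4.31, and 2.71 CPM, in the same order as the neuron markers at 6060, 2820, and 1640 CPM. Over the 14 libraries Pearson's r was 0.93 and Spearman's rho 0.93 (permutation p = 1e-05 each, the smallest that the resamples can give; adjusted p = 0.0013 and 0.0026). Without the 2 libraries farthest from the median of the markers r was 0.87. Within the 11 PNs r was 0.93. Within the same PNs Hoxd1 also had r = -0.65 with fibroblast, -0.66 with cartilage and bone, and -0.61 with macrophage markers. The libraries share the scaling of both measures, and how many neuron cell bodies each dissected piece held was not measured.

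Hoxb5, which patterns neural crest derivatives, followed the same markers with r = 0.72 and rho = 0.89 (permutation p = 1e-05 and 3e-05; adjusted p = 0.0013 and 0.0026). It was lowest in PN 1191, at 3.85 CPM, but was not absent there. Without the 2 farthest libraries r was 0.84, and within the 11 PNs it was 0.80. Against macrophage markers Hoxb5 had r = -0.74 and rho = -0.67 (permutation p = 0.00294 and 0.0104; adjusted p = 0.0456 and 0.143), r = -0.75 without the 2 farthest libraries, and r = -0.71 within the 11 PNs. Within the 11 PNs it also had r = -0.76 with fibroblast markers. Hoxd1 and Hoxb5, from different clusters, were also one of the pairs of members that moved together, with r = 0.85 and rho = 0.93 (permutation p = 4e-05 and 2e-05; adjusted p = 0.0065 each over 325 pairs).

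Hoxd8 fell as the 9 fibroblast markers (Col1a1, Dcn, Pdgfra, and others) rose. Their sum was 2570 to 5250 CPM in controls, 2090 to 11400 CPM in slow-growing PNs, and 9750 to 19000 CPM in fast-growing PNs. Pearson's r was -0.88 and rho -0.92 (permutation p = 8e-05 and 2e-05; adjusted p = 0.00693 and 0.0026), r was -0.90 without the 2 farthest libraries, and r was -0.94 within the 11 PNs. The slow-growing PN with the most fibroblast signal, 1198A at 11400 CPM, had the lowest Hoxd8 level of its group, 6.24 CPM. Hoxd9 behaved similarly, with r = -0.79 and rho = -0.86 (permutation p = 0.00117 and 0.00019; adjusted p = 0.039 and 0.0123), r = -0.79 without the 2 farthest libraries, and r = -0.74 within the 11 PNs. Of the 9 fibroblast markers, 8 were called higher and 1 lower in fast-growing PNs against controls, where 14.8% of all genes were called higher and 16.7% lower. Hoxd8 moved with other lists too. Against macrophage markers it had r = -0.75 and rho = -0.71 (permutation p = 0.00225 and 0.00553; adjusted p = 0.0455 and 0.0959), r = -0.67 without the 2 farthest libraries, and r = -0.91 within the 11 PNs. Within the 11 PNs it also had r = -0.92 with cartilage and bone markers. With neuron markers it had r = 0.63 and rho = 0.87 there. The part of any of these signals in the lower Hoxd8 of fast-growing PNs was not tested.

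**Figure D4:**
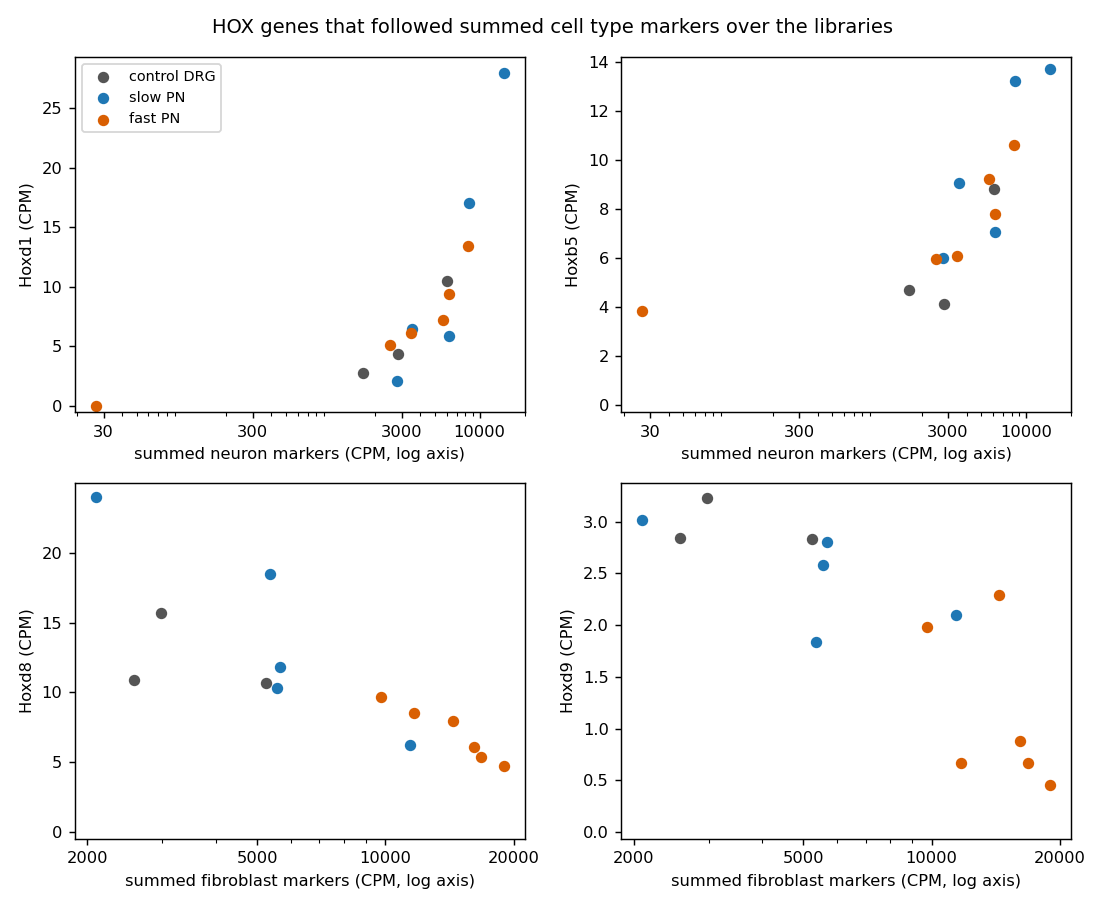
CPM of Hoxd1 and Hoxb5 against summed neuron markers and of Hoxd8 and Hoxd9 against summed fibroblast markers (x axes on a log scale); each point is a library, colored by group. Hoxd1 climbs from 0 in the library with 26.5 CPM of neuron markers to 27.9 CPM at 14600 CPM, and Hoxd8 descends from 24.0 CPM at the lowest fibroblast signal, 2090 CPM, to 4.76 CPM at the highest, 19000 CPM.

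The lowest adjusted p among relations that passed for r alone was 0.0147, in 3 relations of members that were not called. Hoxb4 against endothelial cell markers had r = 0.83 and rho = 0.79 (permutation p = 0.00028 and 0.00114; adjusted p = 0.0147 and 0.0593), with r = 0.77 without the 2 farthest libraries and r = 0.77 within the 11 PNs. Hoxd3 had r = 0.73 and rho = 0.77 with neuron markers (permutation p = 0.00034 and 0.00213; adjusted p = 0.0147 and 0.0615) and r = -0.82 and rho = -0.77 with macrophage markers (permutation p = 0.00034 and 0.0018; adjusted p = 0.0147 and 0.0615). Without the 2 farthest libraries these r were 0.55 and -0.76, and within the 11 PNs 0.74 and -0.85. Hoxd4, which shares exons with Hoxd3, had r = -0.76 and rho = -0.73 with macrophage markers (permutation p = 0.00184 and 0.00424; adjusted p = 0.0455 and 0.0787).

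Of the members called against controls, Hoxa4, Hoxb3, and Hoxb7 had such relations with fat, muscle, or fibroblast markers. Hoxa4 against brown fat and adipocyte markers had r = 0.75 and rho = 0.70 (permutation p = 0.0012 and 0.00682; adjusted p = 0.039 and 0.104), with r = 0.66 without the 2 farthest libraries and r = 0.52 within the 11 PNs. Against fibroblast markers Hoxa4 had r = -0.73 and rho = -0.76 (permutation p = 0.00245 and 0.00195; adjusted p = 0.0455 and 0.0615), with r = -0.78 without the 2 farthest libraries and r = -0.54 within the 11 PNs. Hoxb3 against skeletal muscle markers had r = -0.67 and rho = -0.58 (permutation p = 0.00298 and 0.0339; adjusted p = 0.0456 and 0.272), with r = -0.70 without the 2 farthest libraries and r = -0.23 within the 11 PNs. Hoxb7 against brown fat and adipocyte markers had r = -0.75 and rho = -0.75 (permutation p = 0.00267 and 0.00317; adjusted p = 0.0456 and 0.0749), with r = -0.65 without the 2 farthest libraries and r = -0.54 within the 11 PNs. Against fibroblast markers Hoxb7 had r = 0.72 and rho = 0.70 (permutation p = 0.00364 and 0.00654; adjusted p = 0.0498 and 0.104), with r = 0.68 without the 2 farthest libraries and r = 0.57 within the 11 PNs.

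With spinal cord markers 4 members had relations that passed for r alone, the 3 HOXA genes called lower and Hoxb4, which was not called. The values were r = 0.75 and rho = 0.74 for Hoxa4 (permutation p = 0.00208 and 0.00357; adjusted p = 0.0455 and 0.0754) and r = 0.74 and rho = 0.75 for Hoxa5 (permutation p = 0.0024 and 0.00314; adjusted p = 0.0455 and 0.0749). For Hoxa6 they were r = 0.72 and rho = 0.59 (permutation p = 0.00364 and 0.0305; adjusted p = 0.0498 and 0.264). Without the 2 farthest libraries r was 0.51, 0.60, and 0.69, and within the 11 PNs it was 0.34, 0.42, and 0.46. Hoxb4 had r = 0.74 and rho = 0.73 (permutation p = 0.00245 and 0.00377; adjusted p = 0.0455 and 0.0754), with r = 0.63 without the 2 farthest libraries and r = 0.61 within the 11 PNs. The spinal cord sums were low, at 20.4 to 75.4 CPM. In each library only 3 to 6 of the 10 listed genes had at least 3 counts, so the sums do not establish spinal cord tissue. The muscle, fat, and spinal cord marker signal of the controls coincides with the group, and their parts cannot be told apart.

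At the caudal end of the expressed range, PNs split by library. Hoxc8, a gene of the lower cervical and thoracic code, was at 1.46, 1.83, and 0.938 CPM in controls. It was at 10.2 CPM in the slow-growing PN 1203 and at 8.19, 11.4, and 14.4 CPM in the fast-growing PNs 1071, 1214, and 1216. The other 7 PNs lay between 0.804 and 3.11 CPM. Hoxc8 was not called in PNs against controls, and its level was high in libraries of both growth groups. Hoxb9 was at 1.10, 1.43, 1.26, and 1.55 CPM in the same 4 PNs and at no more than 0.837 CPM in the others. Over the 14 libraries Hoxc8 and Hoxb9 had r = 0.90 and rho = 0.88 (permutation p = 3e-05 and 7e-05; adjusted p = 0.0065 and 0.0114), and r was 0.85 without the 2 libraries farthest in Hoxb9. Hoxc9 reached 2.76 CPM in PN 1216, from 41 counts, and 0.335 to 0.683 CPM in PNs 1053, 1071, and 1214, and no other library had more than 2 counts.

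HOXA did not follow HOXC in every library. Hoxa10, a gene of the lumbar code, was highest in the fast-growing PN 1191, at 4.54 CPM, where Hoxc9 had 0 counts. It was at 3.28 CPM in the slow-growing PN 1206, and at 1.71, 1.37, and 0.625 CPM in controls. In PN 1216, which had the most Hoxc8 and Hoxc9, Hoxa9 and Hoxa10 both had 0 counts, which allows up to 0.202 CPM. Hoxa9 also had 0 counts in PN 1053 and reached 3.86 CPM in PN 1206. PN 1071 carried both Hoxc8, at 8.19 CPM, and Hoxa9, at 2.18 CPM. So did PN 1203, at 10.2 and 2.47 CPM. In PN 1214, with Hoxc8 at 11.4 CPM, Hoxa9 was at 0.371 CPM. Neither Hoxa9 nor Hoxa10 was called in a comparison. The third pair of members past 0.05 for both measures was Hoxd3 with Hoxd8, with r = 0.86 and rho = 0.83 (permutation p = 0.0001 and 0.00041; adjusted p = 0.00812 and 0.0333) and r = 0.73 without the 2 farthest libraries. Neighbours within a cluster had a median rho of 0.55 over 22 pairs, other pairs within a cluster 0.19 over 58, and pairs of the same paralog number in different clusters 0.00 over 24. These medians are descriptions across gene pairs, and neighbours such as Hoxd3 and Hoxd4 share exons in the annotation.

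**Figure D5:**
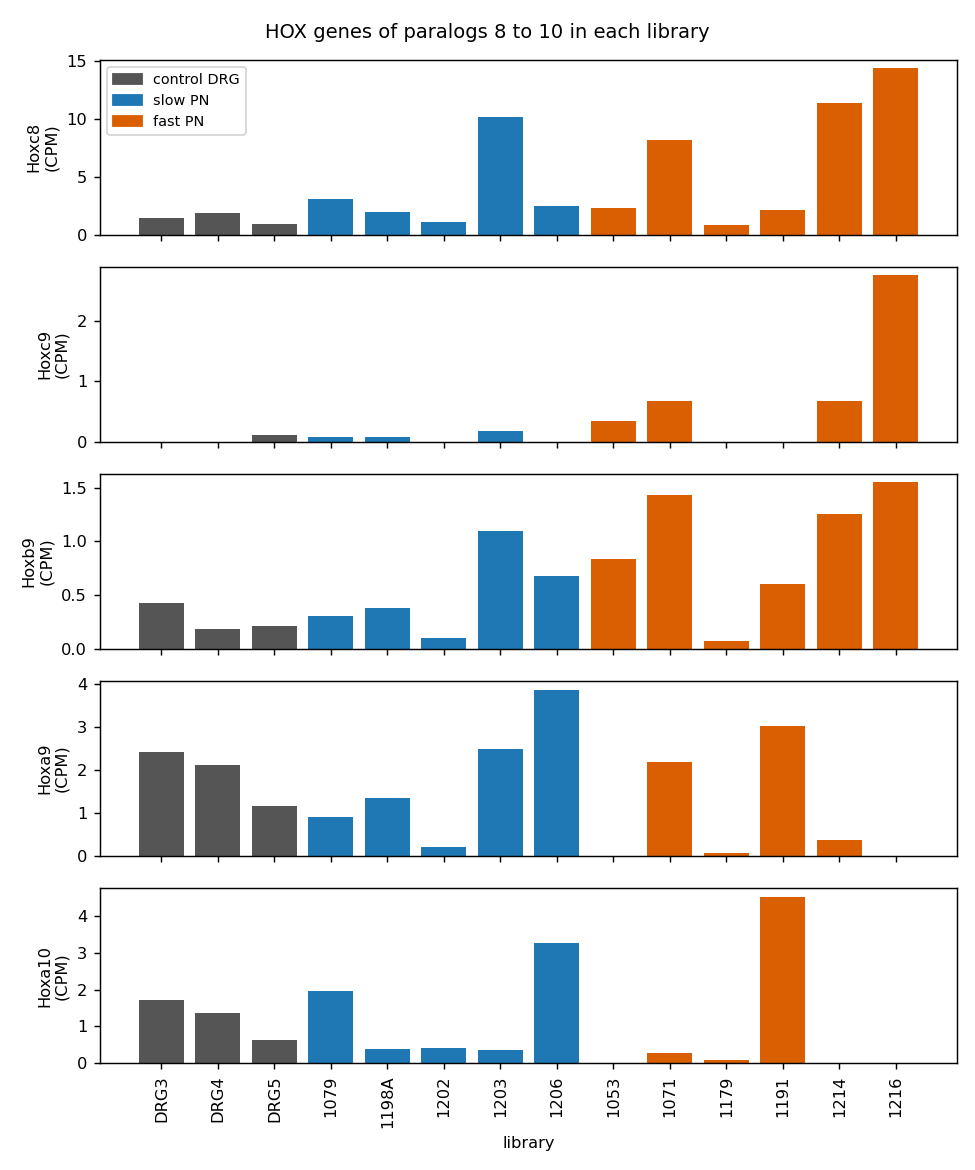
CPM (y axis, from 0) of Hoxc8, Hoxc9, Hoxb9, Hoxa9, and Hoxa10 in each library (x axis), with bars colored by group. Hoxc8 and Hoxb9 are high in PNs 1203, 1071, 1214, and 1216, while Hoxa10 is highest in PN 1191, at 4.54 CPM, and listed at 0 in PNs 1053, 1214, and 1216.

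HOX proteins bind DNA with TALE cofactors of the PBX, MEIS, and PKNOX families. Of 9 cofactors, all tested, 2 were called higher and 0 lower in PNs against controls, where 12.9% of all genes were called higher and 13.4% lower. Pbx2 was at 14.3 to 17.2 CPM in controls and 21 to 37.6 CPM in PNs, without overlap, with a log2 fold change of 0.74 (SE 0.182, edgeR adjusted p = 0.00864; 0.0589 without DRG4). In fast-growing PNs against controls 2 cofactors were called higher and 2 lower, where 14.8% of all genes were called higher and 16.7% lower. The 2 called lower were Meis2 and Meis1, named after their values were seen. Meis2 had a log2 fold change of -0.89 (SE 0.178, edgeR adjusted p = 0.00464). Meis1 had one of -0.61 (SE 0.174, edgeR adjusted p = 0.0255), which was not called without DRG4, DRG5, or the fast-growing PN 1053, 1179, or 1216 (edgeR adjusted p = 0.0506 to 0.144), nor with no filter on low counts (0.0556). Between fast- and slow-growing PNs 1 cofactor was called lower, against 0.466% of all genes. It was again Meis2, at 16.5 to 31.0 CPM in slow-growing and 10.3 to 17.1 CPM in fast-growing PNs, with a log2 fold change of -0.86 (SE 0.18, edgeR adjusted p = 0.0484). The call was kept only without slow-growing PN 1198A or 1203; without any other single library the adjusted p was 0.053 to 0.129. It was lost with limma-voom (adjusted p = 0.0538), with no filter (0.0555), and with the covariates (0.338) as well.

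Genes that set or keep HOX expression include retinoic acid enzymes and receptors, CDX factors, and Polycomb and Trithorax proteins. Of 25 listed, 21 were tested in PNs against controls, 4 were called higher and 1 lower, against the same shares of all genes, and the median log2 fold change was 0.10, equal to that over all genes at this rounding. Those called higher were Bmi1 and Cbx7 of Polycomb complex PRC1, Men1 of the MLL complexes, and Cyp26b1, which degrades retinoic acid. Eed, a subunit of PRC2, was called lower. Bmi1 was at 29.0 to 32.3 CPM in controls and 30.2 to 62.8 CPM in PNs, with a log2 fold change of 0.68 (SE 0.18, edgeR adjusted p = 0.0133). Eed changed by -0.52 on the log2 scale (SE 0.166, edgeR adjusted p = 0.033) and Cbx7 by 0.55 (SE 0.178, edgeR adjusted p = 0.0335). Men1 changed by 0.51 (SE 0.179, edgeR adjusted p = 0.0471) and Cyp26b1 by 1.72 (SE 0.598, edgeR adjusted p = 0.0474). None of these 5 calls was kept without DRG4, where the adjusted p was 0.0729 to 0.201, or without DRG5, where it was 0.0605 to 0.195; those of Cbx7, Men1, and Cyp26b1 were also lost without several single PNs. With muscle and fat scores as covariates all 5 were lost, with an edgeR adjusted p of 0.333 to 0.983, as was that of Pbx2 (0.117). With length and GC trends removed Bmi1 (edgeR adjusted p = 0.246), Cbx7 (0.0703), Men1 (0.0536), and Cyp26b1 (0.0703) were not called. DESeq2 size factors ended the calls of Cbx7 (edgeR adjusted p = 0.0662), Men1 (0.0607), and Cyp26b1 (0.0525), limma-voom those of Men1 (0.0601) and Cyp26b1 (0.141), and no filter that of Men1 (0.0531).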

How the data were processed

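The authors collected control DRGs with nerves and frozen PNs, made libraries from total RNA (Ovation RNA-Seq System v2), and aligned reads to mm10. The submitters' processing notes name CASAVA 1.4, FastQC 0.11.0, TopHat2 2.0.9, featureCounts 1.5.2, and edgeR 3.16.5. The deposited counts are whole reads per gene, without normalization, and all 14 columns matched a sample. The deposited log2 TMM values were not used. The annotation and strand setting of the counting are not given in the sources used here. Genes that share exons, such as Hoxd3 with Hoxd4, Hoxc5 with Hoxc10, and Hoxa2 with Hoxa3 through a read-through transcript, or that overlap antisense genes, such as Hoxa3, Hoxa7, Hoxb2, and Hoxb5, could not be separated.

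Comparisons were fitted in R 4.3.3 with edgeR 4.0.16 (filterByExpr, TMM, quasi-likelihood test, Benjamini-Hochberg adjustment over all genes tested, threshold 0.05) on the libraries of each comparison. No covariate was used. All comparisons with controls share the same 3 controls. Transcript lengths came from GENCODE M21, and promoters from RefSeq (GRCm38.p6). Matching 22 of 39 members gave a promoter. The fits were tested on simulated data. Replicates were compared pairwise, and no pair agreed within sampling noise. At these depths a count of 0 allows 3 counts, and intervals cover counting error only, since amplified reads are not independent molecules.

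Values of 1 member and 1 cofactor are not reported here. The members and lists were chosen with earlier results of these data known. Named with a fold change and test are HOX members called in a comparison (where fewer than 3 were called, the 3 with the lowest p) and, of each other list, at most 5 members called in PNs against controls. Outside this rule, Nf1, Meis1, Meis2, and Hoxd3os1 are given with a fold change and test as well. DESeq2 1.42.0, limma-voom (limma 3.58.1), other normalizations and filters, a single fit over all libraries, covariates, removal of length and GC trends, and leaving out each library were tried as alternatives.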

Additional observations from a re-analysis of the deposited data

Results flagged for a closer look

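Within slow- and fast-growing PNs, the 26 tested members were examined for a library far from the rest of its group (Dixon's test, 52 groups of values). In this way 5 values were far from the others. For normally distributed values chance gives about 1 in 20 groups. The test was run on CPM that were not log-transformed, and all 5 values were the highest of their group. Whether 5 is more than chance gives cannot be told from this test. Hoxc8 was at 10.2 CPM in the slow-growing PN 1203. Hoxa10 was at 4.54 CPM in the fast-growing PN 1191. Hoxb7 was at 8.61 CPM in the fast-growing PN 1216, the library with the most Hoxc6, Hoxc8, and Hoxc9. Hoxb2 was at 2.84 CPM in the fast-growing PN 1053. Hoxd4, which shares exons with Hoxd3, was at 2.32 CPM in the fast-growing PN 1071.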

How the results depend on the processing

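Members called in PNs against controls numbered 4, and 0 with muscle and fat scores as covariates; leaving out single libraries gave 1 to 5. In slow-growing PNs against controls the 1 call became 0 with DESeq2 size factors, with no filter, with limma-voom, with the covariates, and with length and GC trends removed, 3 with DESeq2's Wald test, and 2 with a single fit over all libraries; leaving out single libraries gave 0 to 1. In fast-growing PNs against controls the 5 calls became 8 with DESeq2's Wald test and 0 with the covariates, and leaving out single libraries gave 1 to 6. Between growth groups 0 became 1 with DESeq2's Wald test, and leaving out single libraries gave 0 to 1. With the covariates the fold changes in fast-growing PNs turned sign for Hoxb3 (-0.14), Hoxd8 (0.45), Hoxb7 (-0.60), and Meis1 (0.16), as did that of Cyp26b1 in PNs against controls (-0.04), and in fast-growing PNs 0 genes of any kind were called; the cause was not tested. With length and GC trends removed, Hoxa6 in PNs against controls was at -0.54 (edgeR adjusted p = 0.345). Over all genes, calls in PNs against controls went from 4283 to 324 with the covariates. In fast-growing PNs against controls they rose from 5043 to 5868 of the 16037 genes tested with DESeq2's Wald test. In slow-growing PNs against controls they went from 1769 to 3529 with DESeq2's Wald test, 3222 with a single fit, 1176 with length and GC trends removed, and 0 with the covariates. Between growth groups they went from 196 to 1592 with DESeq2's Wald test, 428 with a single fit, 34 with limma-voom, and 0 with the covariates. The difference in mean paralog number from controls was -0.22 in slow-growing and -0.13 in fast-growing PNs. Within HOXA alone the slow-growing difference was 0.02, within HOXC 0.28, and within HOXD -0.72. The fast-growing difference was 0.42 within HOXC and -0.91 within HOXD. Within HOXB the mean was 4.62 in controls, 4.63 in slow-growing, and 4.77 in fast-growing PNs, so both differences had the other sign there. With Hoxd1 left out, chosen after seeing the data, the differences were -0.04 and -0.08. No paired analysis was possible because the labels give no replicate numbers shared between groups. Between 920 and 1759 HOX counts per library limit what can be said of members under about 3 counts.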

Other observations

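Homeobox and T-box genes outside the HOX clusters that act in head, limb, and trunk patterning were examined as well. Of 25 listed, 14 were tested in PNs against controls and 2 were called lower, where 13.4% of all genes were. Called higher were 4, but Otx1, Alx4, and Msx2 among them passed the filter on low counts only through the PNs. This count is therefore not set against the share of all genes, and no test is given for these 3. The other gene called higher is not described here. Otx1, a gene of the anterior head and sensory organs, had 3, 2, and 0 counts in controls, or 0 to 0.257 CPM. The 0 counts in DRG5 allow up to 0.313 CPM. In the 11 PNs Otx1 was at 8.49 to 11.9 CPM, with 10.2 CPM in PN 1191, the library nearly without neuron markers. Alx4, a gene of craniofacial and limb mesenchyme, had 3, 3, and 2 counts in controls and was at 3.88 to 9.45 CPM in PNs. Msx2, a BMP target in limb and skull, had 1, 0, and 1 counts in controls and was at 0.341 to 1.83 CPM in PNs. Tbx15, expressed in muscle and brown fat precursors, was lower in PNs, at 8.42 to 36.6 CPM against 33.8 to 56.9 CPM in controls (edgeR adjusted p = 0.0112; 0.0608 without DRG4, 0.073 without DRG5, and 0.504 with muscle and fat scores as covariates). Shox2, a gene of the proximal limb, was lower as well, at 0.740 to 2.76 CPM against 1.67 to 5.92 CPM (edgeR adjusted p = 0.0349; 0.31 without DRG3, 0.0773 without DRG4, and 0.725 with these covariates).

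Of the noncoding rows of the HOX clusters, Hotair and Hoxa11os had 0 counts in all 14 libraries, which were made from total RNA. Hottip, which lies beyond Hoxa13, had 4 counts, all in controls. Hoxd3os1 had 106 counts over all libraries. It was the only one of 10 such rows tested in PNs against controls and was not called (log2 fold change -0.67, SE 0.653, edgeR adjusted p = 0.477).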
